A study of Homo sapiens with 8 samples.

Results

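The genes described here encode the general splicing machinery and the heterogeneous nuclear ribonucleoproteins (hnRNPs). They were taken as the GENCODE protein-coding genes on chromosomes 1 to 22 and X whose symbol begins with SRSF, SF3A, SF3B, SNRP (SNRPN left out), HNRNP, PRPF or U2AF, which gave 75 of 19970 genes. The rule uses names and no measured value, although the group was proposed with earlier results of these data known. By family there were 12 SRSF, 9 SF3A and SF3B, 11 SNRP, 27 HNRNP, 13 PRPF and 3 U2AF genes. The symbol rule also brings in near-identical copies such as HNRNPA1L2, HNRNPA1L3, the HNRNPCL genes and SRSF8, and the readthrough locus HNRNPUL2-BSCL2.

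The data are ChIP-seq peak lists from U-2 OS, a human osteosarcoma line, whose chromatin was fixed for 6 min in 1% formaldehyde. Sp1 was precipitated with either of a pair of rabbit antibodies, 1 library each, and IgG was used for a mock precipitation, all from the V5-Halo-SP1 line, in which the endogenous gene carries the tag and which the methods describe as a single homozygous clone. CTCF was precipitated in 2 replicate libraries from the single clone C32, whose endogenous CTCF carries a FLAG-Halo tag, per the labels. The series description instead names unmodified cells for CTCF, and the labels were followed. No untagged library was compared, and since Sp1 and CTCF were profiled in different lines and on different sequencers, the target and the experiment cannot be told apart in any contrast between them.

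Pre-mRNA splicing removes introns by the stepwise assembly of small nuclear ribonucleoproteins on each intron. SR proteins promote, and hnRNPs often oppose, the choice of particular exons. Sp1 is a zinc finger activator of housekeeping promoters whose best known element is the GC box. CTCF is a zinc finger protein with a long recognition sequence that occupies insulators, loop anchors and many promoters.

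A promoter peak is a peak whose summit lies within 1 kb of any annotated transcript start of the gene. The value given for a gene is the fold enrichment of its strongest promoter peak over control, a linear ratio from the authors' peak caller. Which library was the control, and which local background was used, is not given for the deposited lists in the sources used here. The lists held 8706 peaks for Sp1 antibody 1, 5973 for antibody 2, 42765 and 36082 for CTCF replicates 1 and 2, and 106 for IgG. They carry no read counts, so depth is unknown, and shares are given with 95% Wilson intervals that cover counting error only. The Sp1 lists have no replicate, genes are not replicates of a library, and no p-value was computed.

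The stretches that carry the strongest and the most antibody-dependent signals are shown first, read 5′ to 3′ on the strand of the gene from hg38. Whole windows are the 101 bp around the summit, and windows with over 30 bases of annotated untranslated exon, of the member or of a neighbouring gene, are shortened to 30 bp around the match. The 4 members with the highest antibody 2 enrichment are printed with each CCGGAA of the stretch shown, or its reverse complement, in capitals. The full window of SNRPB holds 3 such words, of which 1 is shown. This word is the core of the sites of ETS family factors.
SF3A3, chr1:37990010-37990110, minus strand: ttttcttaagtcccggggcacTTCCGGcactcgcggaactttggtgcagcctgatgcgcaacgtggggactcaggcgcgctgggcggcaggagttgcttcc
SNRPB, chr20:2470813-2470842, minus strand: tagtgagctggaCCGGAAgtaggtttctac
SNRPD3, chr22:24555828-24555857, plus strand: gccctcttTTCCGGtgCCGGAActatcgta
SF3B6, chr2:24076356-24076456, minus strand: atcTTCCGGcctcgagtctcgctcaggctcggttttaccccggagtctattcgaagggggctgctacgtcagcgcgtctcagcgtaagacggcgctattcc

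The next 4 were chosen for a high antibody 1 value, a large gap between the antibodies, or the word TCGCGAGA. HNRNPH3 and HNRNPK have this word in capitals, where its forward and reverse forms overlap, and HNRNPH1 has its GC box, GGGCGG, in capitals. SRSF10 has the highest antibody 1 value of all members and no capitals. Its window holds no GC box, CCGGAA or TCGCGAGA, nor TTGCGCAA or TTGCACAA, the other words searched on both strands. TCGCGAGA does occur outside this window and inside the antibody 1 peak of SRSF10, within 50 bp of the CTCF replicate 2 summit.
HNRNPH3, chr10:68331941-68332041, plus strand: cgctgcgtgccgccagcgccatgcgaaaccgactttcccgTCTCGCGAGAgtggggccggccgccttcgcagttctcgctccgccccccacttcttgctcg
HNRNPK, chr9:83980634-83980734, minus strand: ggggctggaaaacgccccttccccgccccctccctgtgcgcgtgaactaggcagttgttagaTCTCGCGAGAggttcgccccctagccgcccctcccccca
HNRNPH1, chr5:179623733-179623762, minus strand: tgtgacgcaacgGGGCGGtgcgggcagctg
SRSF10, chr1:23980403-23980503, minus strand: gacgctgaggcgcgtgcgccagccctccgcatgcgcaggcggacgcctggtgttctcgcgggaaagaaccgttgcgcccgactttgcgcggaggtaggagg

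The CTCF windows, from the summits of replicate 1, have the CTCF core match in capitals. SF3A3, PRPF19 and SNRPD2 are the 3 members with an exact match, and SRSF5, the member with the highest CTCF value, has 1 mismatch.
SF3A3, chr1:37990136-37990236, minus strand: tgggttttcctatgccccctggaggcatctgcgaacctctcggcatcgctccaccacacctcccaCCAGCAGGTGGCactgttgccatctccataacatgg
PRPF19, chr11:60899499-60899599, minus strand: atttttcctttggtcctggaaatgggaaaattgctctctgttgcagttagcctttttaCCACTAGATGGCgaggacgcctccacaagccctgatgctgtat
SNRPD2, chr19:45693492-45693521, minus strand: ttcgcacaaCCAGCAGGGGGCgcagataag
SRSF5, chr14:69727122-69727151, plus strand: cccgctggcGCCATCTAGTGTcgaatgagg

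Sp1 peaks were found at most splicing and hnRNP promoters. Antibody 1 had a promoter peak at 59 of the 75 genes (78.7%, interval 68.1 to 86.4), beside 37.5% of all protein-coding genes. Antibody 2 had one at 48 (64.0%, 52.7 to 73.9), beside 24.2% of all. Both antibodies marked the same promoter in 45 genes (60.0%, 48.7 to 70.3), beside 21.2% of all, and at least 1 antibody marked 62 (82.7%), beside 40.4%. The IgG list had no promoter peak at any of the 75 genes, which allows a share of up to 4.87% by the Wilson interval, beside 0.025% of all genes.

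CTCF was found at fewer of these promoters than Sp1 was. Replicate 1 had a promoter peak at 38 genes (50.7%, 39.6 to 61.7), beside 32.5% of all. Replicate 2 had one at 29 (38.7%, 28.5 to 50.0), beside 24.9%. The 29 were all among the 38, so both replicates marked 38.7%, beside 24.3% of all genes. The background lay below the interval in each case. The share of members was 2.1 and 2.65 times that of all genes for the Sp1 antibodies and 1.56 and 1.55 times for the CTCF replicates, an order that depends on list length and turned when the lists were cut to equal length.

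Combinations of both proteins were also more frequent. All 4 lists marked 19 genes (25.3%, 16.9 to 36.2), beside 6.71% of all, and a further 19 had both Sp1 antibodies and no CTCF replicate, beside 12.0%. Only 4 genes (5.33%, 2.09 to 12.9) had both CTCF replicates and no Sp1 peak, an interval that takes in the 11.8% of all genes: SRSF4, SRSF8, PRPF19 and U2AF1. Among genes with both Sp1 antibodies, both CTCF replicates marked 19 of 45 members (42.2%, 29.0 to 56.7) and 31.6% of all genes, so within Sp1-marked promoters the members' share was not distinguishable from that of all genes. No peak in any list was found at 9 genes (12.0%, 6.44 to 21.3), beside 43.8% of all.

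**Figure D1:**
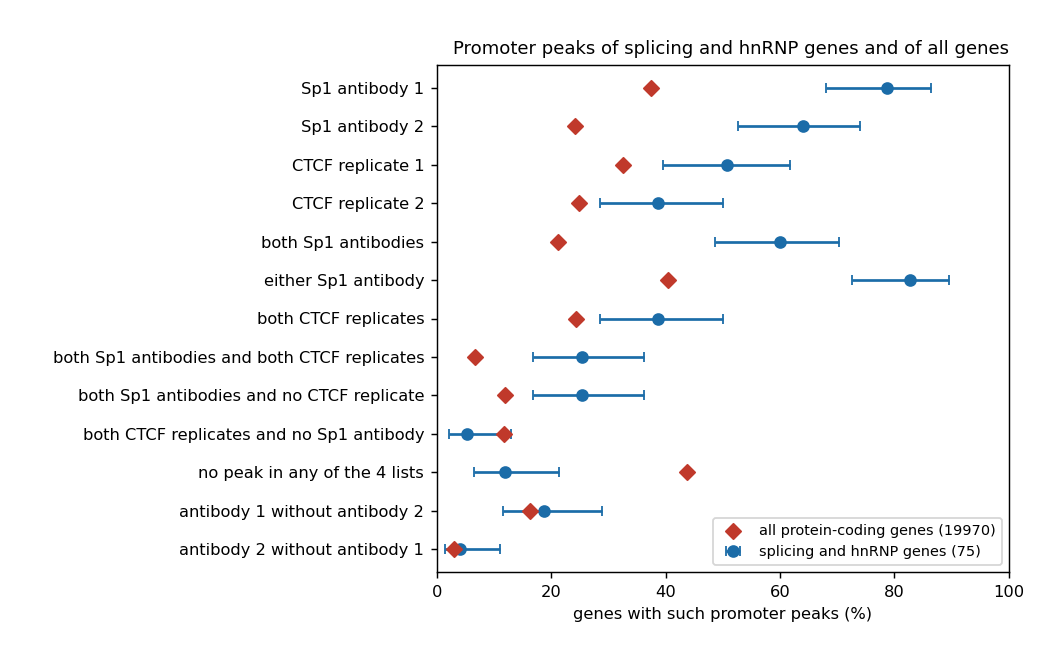
Percentage of genes (horizontal axis) with each kind of promoter peak (vertical axis) for the 75 splicing and hnRNP genes (circles, bars are 95% Wilson intervals) and for all 19970 protein-coding genes (diamonds). The circles lie to the left of the diamonds for genes with no peak in any list (12.0% against 43.8%). They also lie to the left for both CTCF replicates without Sp1 (5.33% against 11.8%). In every other row they lie to the right.

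The counts of start sites differ between members and other genes and bear on these shares. Members had a median of 8 annotated start sites and 5206 bp of promoter window, against 5 and 4629 bp over all genes. When the canonical start alone was used, antibody 1 marked 76.0% of members and 34.1% of all genes, and all 4 lists marked 16.0% and 4.14%. With a 5 kb window, CTCF replicate 1 marked 60.0% of members (48.7 to 70.3) and 51.7% of all, so at that distance CTCF was not distinguishable from the background, whereas antibody 1 marked 80.0% and 40.7%. With each list cut to its strongest 5973 peaks, CTCF replicate 1 marked 17.3% of members and 5.69% of all, and replicate 2 marked 16.0% and 5.41%. At that length antibody 1 marked 61.3% and 28.7%, and antibody 2, whose list is the shortest, 64.0% and 24.2%, so the ratio of members to all genes was then higher for CTCF than for Sp1.

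Divergent gene pairs were common in the group. Another protein-coding gene started within 1 kb on the opposite strand for 24 of the 75 members, against 16.3% of all genes. Antibody 1 marked 23 of these 24 members, against 70.0% of all genes with such a neighbour, and 36 of the 51 members without one (70.6%), against 31.1%. Antibody 2 marked 20 of the 24, against 51.2% of all genes with such a neighbour, and 28 of the 51, against 18.9%. CTCF replicate 1 marked 13 of the 24 (54.2%), against 39.0%, and replicate 2 marked 7 (29.2%), against 29.1%, so in replicate 2 members with a divergent neighbour did not stand apart. A peak between divergent starts counts for both genes and cannot be assigned to either. For SRSF11 the antibody 1 summit lay 90 bp from the start of LRRC40, for SRSF9 128 bp from that of DYNLL1 and for PRPF40B 244 bp from that of MCRS1, each over 1 kb from the member's own canonical start.

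Of the 12 SR protein genes, 9 had an antibody 1 peak, 6 an antibody 2 peak, 7 CTCF replicate 1 and 6 CTCF replicate 2. The shares of all genes to set beside each family were 37.5% and 24.2% for the antibodies and 32.5% and 24.9% for CTCF. SRSF9, which regulates exon choice, had the highest mean log2 Sp1 value of the SRSF genes with both antibodies, with 30.4 for antibody 1, 15.7 for antibody 2, 116 for CTCF replicate 1 and 67.6 for replicate 2. The Sp1 summits of SRSF9 lay 26237 and 26316 bp from its canonical start, and 128 and 49 bp from the start of DYNLL1. Its strongest CTCF summit in replicate 1 lay 94 bp from the canonical start. SRSF2, also named SC35, had 18.9 and 16.0 for the antibodies and no CTCF peak. SRSF1, the founding SR protein, had 20.8 and 5.77 and no CTCF peak.

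SRSF10, an SR protein that represses splicing when dephosphorylated, had an antibody 1 fold of 97.2, the 43rd highest of all protein-coding genes, and no antibody 2 peak. Its nearest antibody 2 summit lay 136321 bp from a start. Its CTCF values were low, at 6.65 and 4.31. SRSF10 was thus the extreme case of a promoter recovered with 1 antibody only.

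SRSF5 had the highest CTCF value of all members, 242 in replicate 1 and 102 in replicate 2, beside Sp1 values of 5.82 and 5.14. The CTCF summit lay 252 bp downstream of an alternative start and 39990 bp upstream of the canonical start. SRSF4 had CTCF alone, at 73.6 and 34.6, and SRSF8 at 27.5 and 14.1. SRSF11 had CTCF in replicate 1 only, at 3.18, with an antibody 1 value of 9.34. SRSF12, an SR protein that counteracts others, had no promoter peak, and its nearest antibody 1 summit lay 25157 bp away.

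The genes of the U2 snRNP factors SF3a and SF3b, which recognise the branch point, all had an antibody 1 peak. Of these 9 genes, 4 also had an antibody 2 peak (44.4%, beside 24.2% of all genes). CTCF marked 2 in both replicates (22.2%), near the 24.3% of all genes. The antibody 1 values ran from 3.66 at SF3B3 to 16.1 at SF3B4. SF3B1, the subunit that clamps the branch point and is recurrently mutated in blood cancers, had an antibody 1 value of 4.19 and no other promoter peak. SF3A1, SF3B2 and SF3B3 likewise had antibody 1 alone, at 4.81, 5.01 and 3.66.

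The family had the lowest share of genes with antibody 2 and the highest single antibody 2 value. SF3A3, a subunit of SF3a, had 12.8 for antibody 1 and 134 for antibody 2, together with 134 and 117 for the CTCF replicates. The summits of the antibodies lay 38 bp apart and those of antibody 1 and CTCF replicate 1 lay 88 bp apart. SF3B6, the subunit that contacts the branch adenosine, had 14.1 and 54.4 with summits 7 bp apart and no CTCF peak. SF3B5 had 10.2 for both antibodies, equal to 3 digits. SF3A2 had 11.3 for antibody 1, no antibody 2 peak, and 111 and 56.4 for CTCF.

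Among the SNRP genes, which encode the Sm ring and the U1 and U2 proteins, 9 of 11 had antibody 1, 8 antibody 2, 6 CTCF replicate 1 and 5 replicate 2. SNRPB, an Sm protein, had 10.2 for antibody 1 and 57.5 for antibody 2. SNRPD3, another Sm protein, had 24.7 and 56.8, although the strongest summits of the antibodies lay 515 bp apart within overlapping peaks. SNRPD3 had CTCF in replicate 1 only, at 2.68, the lowest CTCF value of all members.

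SNRPD1, also of the Sm ring, had an antibody 2 peak of 14.1, no antibody 1 peak, and CTCF values of 169 and 104, the highest mean log2 CTCF value in the family. SNRPE had 161 and 93.6 for CTCF and 6.96 and 5.78 for Sp1. SNRPD2 had 126 and 108 for CTCF, with the summit 1570 bp upstream of its canonical start and 857 bp from that of QPCTL. SNRPG had antibody 1 alone, at 5.56. SNRPF, also of the Sm ring, had no promoter peak in any list, and its nearest antibody 2 summit lay 77898 bp away. The U1 protein gene SNRPA had 13.1 and 11.5 for the antibodies at summits 3 bp apart and no CTCF peak.

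**Figure D2:**
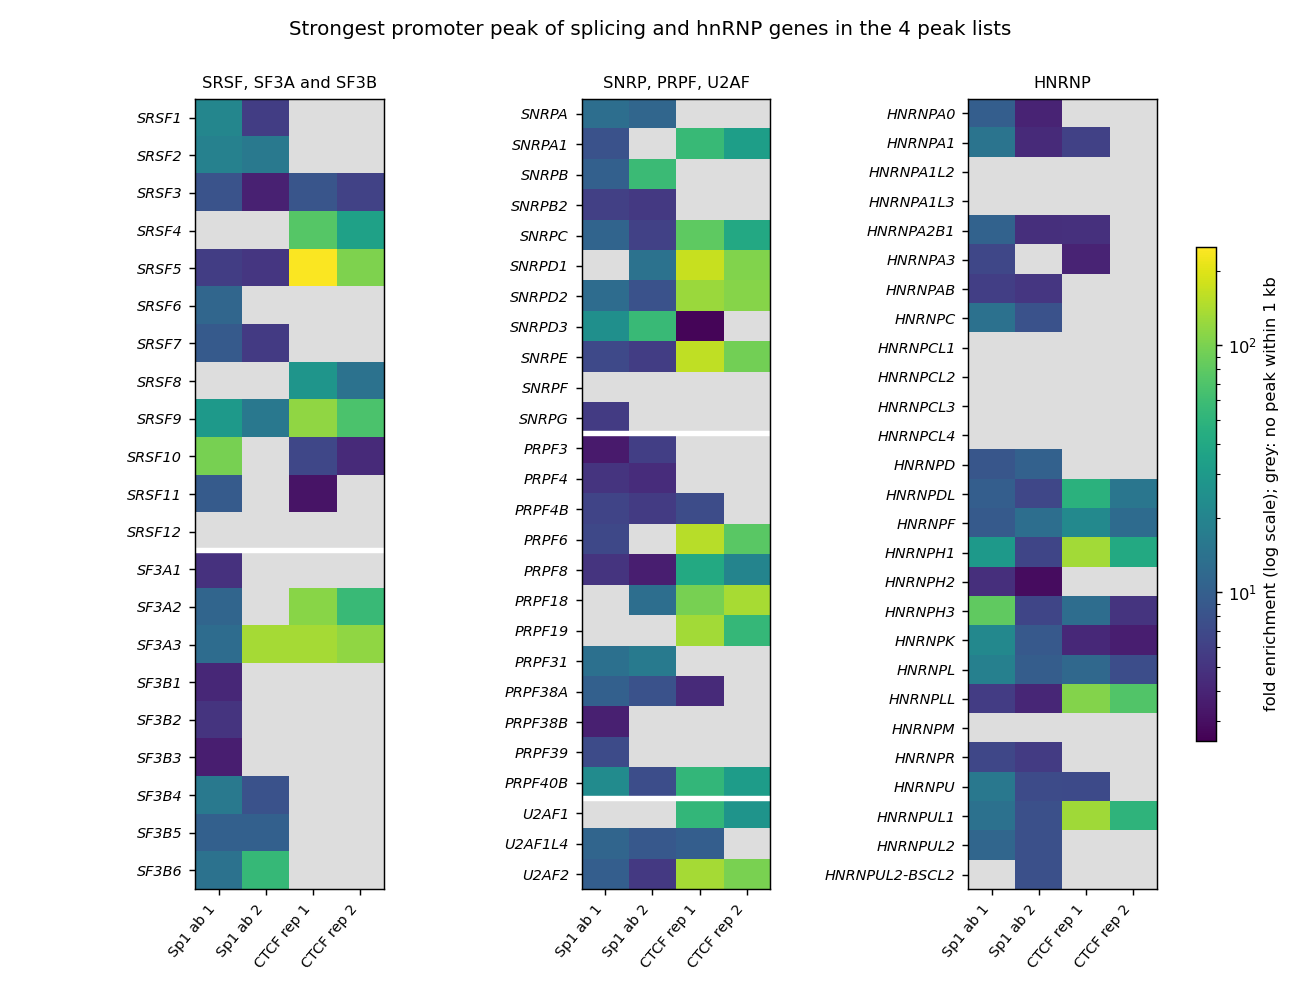
Fold enrichment (colour, log scale) of the strongest promoter peak of the members, all but 1 (rows, grouped by family), in the 4 lists (columns), with grey for no peak within 1 kb. SRSF10 and HNRNPH3 stand out for antibody 1 (97.2 and 80.7), SF3A3 for antibody 2 (134) and SRSF5 for CTCF replicate 1 (242), and the HNRNPCL rows are grey throughout.

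The 27 HNRNP genes had both antibodies at 18 promoters, and 7 had no peak in any list. Antibody 1 and antibody 2 each marked 19. CTCF marked 12 in replicate 1 (44.4%, beside 32.5% of all genes) and 8 in replicate 2 (29.6%, beside 24.9%). All 8 had both Sp1 antibodies as well. The 7 without peaks were HNRNPA1L2, HNRNPA1L3, HNRNPCL1, HNRNPCL2, HNRNPCL3, HNRNPCL4 and HNRNPM. Of these, all but HNRNPM are copies of HNRNPA1 or HNRNPC, where reads may not be placed uniquely, and the part this has in their values was not tested. HNRNPM, a regulator of alternative splicing, had its nearest antibody 1 summit 24968 bp away.

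HNRNPH3 had the largest gap between antibodies in favour of antibody 1. Its values were 80.7 for antibody 1, 6.55 for antibody 2, and 12.9 and 4.96 for CTCF, and the antibody summits lay 13 bp apart. HNRNPH1, which like HNRNPH3 and HNRNPF binds runs of G in RNA, had 29.6 and 6.54, with CTCF at 133 and 41.1 at an alternative start 10877 bp upstream of the canonical one. HNRNPF had 9.24 and 13.1, but at different summits, 231 and 1329 bp from the canonical start. Its other antibody 2 peak, nearer to the antibody 1 summit, had 3.81. HNRNPF was the 1 member with TTGCGCAA or TTGCACAA under its strongest antibody 2 summit. HNRNPH2 on the X chromosome had 4.64 and 2.91, the lowest antibody 2 value of all members.

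HNRNPK, which binds runs of C, had 21.6 and 9.12 for the antibodies and CTCF values of 4.26 and 3.7. HNRNPL, which binds CA repeats, had 18.5 and 9.7, and its nearest antibody 1 and CTCF summits were 6 bp apart. HNRNPD, the AU-rich element binder AUF1, had 8.55 and 10.5 and no CTCF promoter peak. HNRNPLL, which controls CD45 splicing in lymphocytes, had the highest mean log2 CTCF value of the family, from 106 and 71.3, with Sp1 values of 5.7 and 4.09.

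The genes of hnRNPs A1, A2/B1, A3 and U had CTCF in replicate 1 only. HNRNPA1 had 14.7 and 4.33 for Sp1 and 6.14 for CTCF. HNRNPA2B1 had 10.7 and 4.62 for Sp1 and 4.73 for CTCF. HNRNPU, a scaffold-associated RNA binder, had 15.9 and 7.22 for Sp1 and 7.02 for CTCF. HNRNPA3 had antibody 1 at 6.63, CTCF at 3.97 and no antibody 2 peak. HNRNPUL2 and HNRNPUL2-BSCL2 share the same antibody 2 peak of 7.65, while the antibody 1 summit of 11.5 lay within reach of HNRNPUL2 and 1050 bp from a start of HNRNPUL2-BSCL2.

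The 13 PRPF genes encode tri-snRNP, catalytic and U1-associated factors, and each had a promoter peak in at least 1 list. Antibody 1 marked 11, antibody 2 marked 9, and CTCF marked 8 and 6. PRPF31, a tri-snRNP protein mutated in retinitis pigmentosa, had 13.7 and 16.8 for Sp1 and no CTCF peak. PRPF3, another tri-snRNP protein, had 3.51 and 5.92, the lowest antibody 1 value of all members. PRPF8, at the catalytic centre, had 4.97 and 3.7 for Sp1 and 41.1 and 19.9 for CTCF, the latter at an alternative start 15349 bp inside the gene.

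PRPF18, a second-step factor, had an antibody 2 peak of 13.3, no antibody 1 peak, and CTCF values of 97.3 in replicate 1 and 138 in replicate 2. It was the 1 member of the 29 with both CTCF replicates whose replicate 2 value was the higher. PRPF19, the ubiquitin ligase of the Prp19 complex, had no Sp1 peak and CTCF at 131 and 54.1, with the summit in an intron 7036 bp from the canonical start. PRPF6 had 6.84 for antibody 1 and 152 and 76.8 for CTCF. PRPF38A and the kinase gene PRPF4B had CTCF in replicate 1 only, at 4.36 and 7.23.

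U2AF2, which binds the polypyrimidine tract, had 9.94 and 5.34 for Sp1 and 135 and 98.9 for CTCF. U2AF1L4 had 11.3 and 8.89 for Sp1 and CTCF in replicate 1 only, at 9.9. U2AF1, which reads the end of the intron, had CTCF at 53.2 and 27.3 and no Sp1 peak. Its value is uncertain, because hg38 holds an artifactual copy at chr21:6484623-6499248, and reads from the same sequence may have been split between them or dropped. The copy had CTCF peaks of 68.6 and 27.3 and no Sp1 peak.

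Where a peak was present, Sp1 enrichment at members was close to that elsewhere. The median fold was 10.2 (interval from order statistics 8.05 to 11.5, n = 59) for antibody 1, against 8.85 over all genes with a peak, and 7.56 (5.78 to 8.89, n = 48) for antibody 2, against 7.02. Both intervals take in the median of all genes. The CTCF medians were 49.9 (11.8 to 106, n = 38) against 22.6 in replicate 1 and 40.1 (15.2 to 71.3, n = 29) against 19.8 in replicate 2, and these wide intervals also take in the values of all genes. Among the strongest 5973 peaks of each list the order for CTCF replicate 1 turned, with 133 at members and 145 over all genes.

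The antibodies differed by gene. Over the 45 members with both, antibody 2 had a median log2 ratio to antibody 1 of -0.48 (-0.86 to -0.23), from -3.62 at HNRNPH3 to 3.39 at SF3A3, and over all genes the median was -0.66. The ratio was above 0 at 9 members, namely SF3A3, SNRPB (2.49), SF3B6 (1.95), SNRPD3 (1.20), PRPF3 (0.76), HNRNPF (0.50), PRPF31 (0.30), HNRNPD (0.29) and, by a margin that rounds to 0.00, SF3B5. The ratio compares the strongest peaks, whose summits lay 515 bp apart at SNRPD3. The strongest peaks of HNRNPF were also at different summits. There the antibody 2 peak nearer to the antibody 1 summit was the lower, at 3.81 against 9.24. The values were over 4-fold apart at SF3A3, SNRPB, HNRNPH3 and HNRNPH1, which is 8.89% of members, against 11.0% of all genes. Antibody 1 alone marked 14 members (18.7%), beside 16.3% of all genes, and antibody 2 alone marked 3 (4.00%), beside 2.96%, namely PRPF18, SNRPD1 and HNRNPUL2-BSCL2.

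The peaks of the antibodies overlapped at all 45 members, with a median of 52 bp between the nearest summits and 28 pairs within 100 bp. Across these 45 genes the rank correlation of the folds was 0.56, and across all 4233 genes with both it was 0.32. These genes come from the same pair of libraries and are not independent. Antibody and library cannot be told apart, since each antibody has 1 library.

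**Figure D3:**
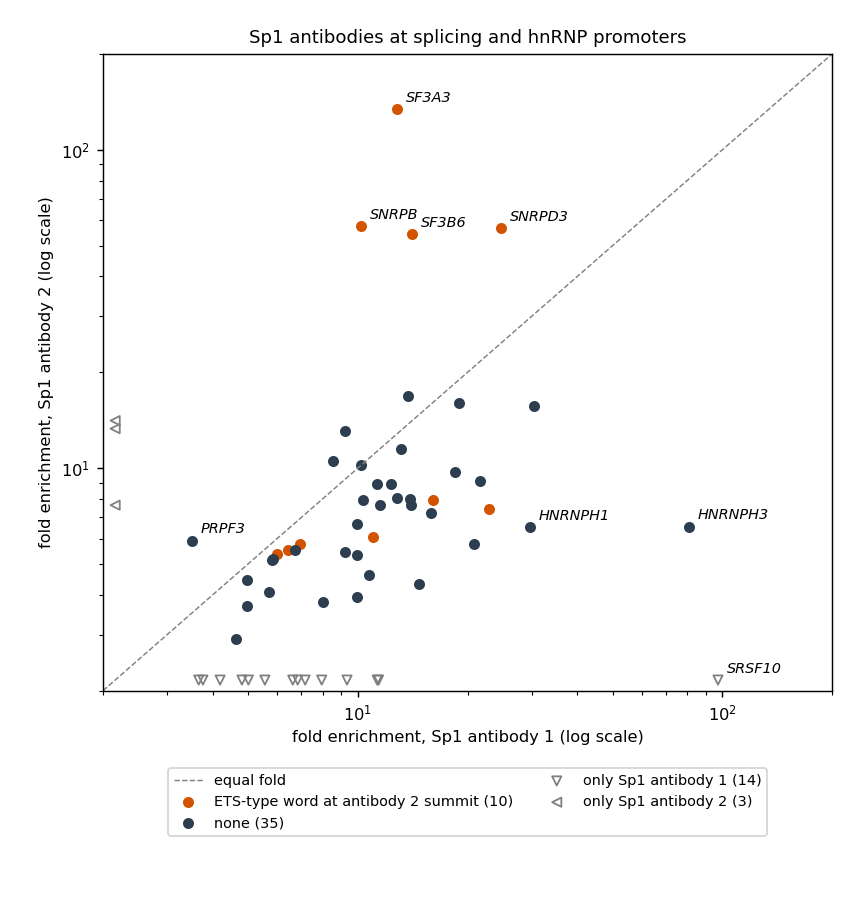
Fold enrichment with Sp1 antibody 1 (horizontal axis, log scale) and antibody 2 (vertical axis, log scale) at each member, with open triangles on the edges for genes marked by 1 antibody only. Orange points have an ETS-type word (CCGGAA) within 50 bp of the antibody 2 summit. The 4 points furthest above the dashed line of equal fold (SF3A3, SNRPB, SF3B6 and, at 2.3-fold, SNRPD3) are all orange.

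The words under the summits differed between the genes at these extremes. SF3A3, SNRPB, SNRPD3 and SF3B6 were the 4 members with an antibody 2 fold above 50, and CCGGAA lay within 50 bp of the summit in each, as printed above. Over all genes, 187 of the 299 with an antibody 2 fold above 50 had it (62.5%). Among all members with an antibody 2 peak 12 of 48 had it (25.0%, 14.9 to 38.8), against 24.0% of all genes. CCGGAA also lay within 50 bp of the antibody 1 summit at SF3A3, SNRPB, SNRPD3 and SF3B6. In all, 13 of 59 members had it there (22.0%, 13.4 to 34.1), against 14.4% of all genes. The other 6 members with the word and both antibodies had antibody 2 folds from 5.39 at SNRPB2 to 7.96 at SF3B4.

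For antibody 1, TCGCGAGA was found within 50 bp of the summit at HNRNPH3 and HNRNPK, 2 of 59 members (3.39%), against 3.68% of all genes. At SRSF10 the word lay outside that distance but inside the antibody 1 peak. Over all genes it was present at 55 of the 123 with an antibody 1 fold above 50 (44.7%). The GC box lay within 50 bp of the antibody 1 summit at 26 of 59 members (44.1%, 32.2 to 56.7), against 56.7% of all genes, and of the antibody 2 summit at 21 of 48 (43.8%), against 44.4%. Members with a GC box under the antibody 1 summit had a median fold of 11.4, and those without one 9.24.

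The frequency of GC boxes did not set the members apart. In RefSeq promoters of GRCh38.p14, from 250 bp before to 50 bp after the start, 65 of the 75 members matched by symbol, and 40 of these (61.5%, 49.4 to 72.4) had a GC box, against 65.1% of 15322 genes. CCGGAA was present in 28 (43.1%, 31.8 to 55.2), against 26.9%. TCGCGAGA was present in 3 (4.62%), against 2.1%, the CTCF core in 1 (1.54%), against 0.574%, and TTGCGCAA or TTGCACAA in 0, against 1.09%. Median GC content was 62.0% in members and 62.5% over all. Members with a GC box had an antibody 1 peak in 34 of 40 cases (85.0%), against 49.0% of all genes with the box, and members without one in 18 of 25 (72.0%), against 22.0%. The margin over other genes was present in promoters with the box and in those without it.

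CTCF values at members were alike in order in the replicates and lower in replicate 2. Over the 29 members with both, replicate 2 had a median log2 ratio to replicate 1 of -0.83 (-0.99 to -0.67), against -0.95 over all genes, and 28 of 29 were below 0. The rank correlation was 0.90 over these 29 genes and 0.95 over all 4843 with both. The median distance between their summits was 9 bp, and all 29 pairs were within 100 bp. The 9 members marked in replicate 1 only had a median fold of 4.73 (2.68 to 9.9), whereas the 29 with both had 79.8 (4.26 to 242), so the peaks without a counterpart in replicate 2 were weak in replicate 1.

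**Figure D4:**
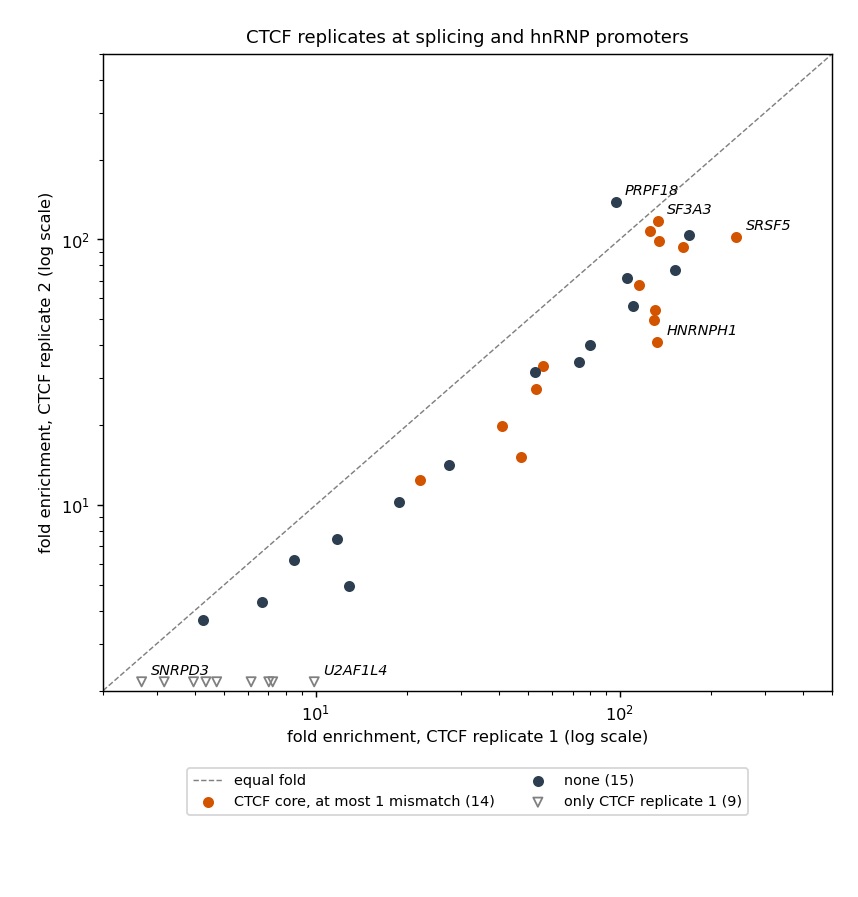
Fold enrichment in CTCF replicate 1 (horizontal axis, log scale) and replicate 2 (vertical axis, log scale) at each member, with open triangles on the lower edge for the 9 genes marked in replicate 1 only. Orange points have a CTCF core with at most 1 mismatch within 50 bp of the replicate 1 summit. PRPF18 (97.3 and 138) is the 1 point above the dashed line of equal fold.

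The CTCF core was found at 15 of 38 members when 1 mismatch was allowed (39.5%, 25.6 to 55.3), against 34.0% of all genes with a replicate 1 peak. Members with it had a median replicate 1 fold of 126 and those without it 11.8, and over all genes these medians were 60.3 and 13.0. Among the 14 members with a replicate 1 fold of at least that of PRPF18 (97.3), no such match was found at SNRPD1, PRPF6, SF3A2, HNRNPLL and PRPF18.

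Sp1 summits lay nearer to starts than CTCF summits did. The median distance was 70 bp for antibody 1 and 61 bp for antibody 2 in members (81 and 84 bp over all genes), and 158 and 133 bp for the CTCF replicates (216 and 226 bp over all genes). In the 32 members with antibody 1 and CTCF replicate 1, the closest pair of summits was a median of 322 bp apart, and 7 (21.9%) were within 100 bp, against 18.6% of 3170 genes. HNRNPUL1 had the closest pair, 5 bp apart, where the antibody 1 peak was the weaker of its pair of promoter peaks, at 4.87, and the CTCF values were 130 and 49.8. The strongest CTCF summit lay over 1 kb from the canonical start in 10 of 38 members in replicate 1 and 9 of 29 in replicate 2, and the strongest Sp1 summit in 4 of 59 for antibody 1 and 3 of 48 for antibody 2.

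Other genes of splicing, outside the symbol rule, were counted in the same way. Of 110 genes in 5 lists, 84 had antibody 1 (76.4%, against 37.5% of all genes), 58 antibody 2 (52.7%, against 24.2%), 45 CTCF replicate 1 (40.9%, against 32.5%) and 38 replicate 2 (34.5%, against 24.9%). The U snRNP and Lsm proteins had antibody 1 at 21 of 24 and antibody 2 at 16. PUF60, a U2-associated factor, had 126 for antibody 1 and 6.08 for antibody 2, and SNRNP27, a tri-snRNP protein, had an antibody 2 peak of 44.2 alone. The factors of activation and catalysis had antibody 1 at 14 of 22 and antibody 2 at 15, with AQR, an intron-binding helicase, at 83.2 for antibody 2 and no antibody 1 peak. The minor spliceosome had antibody 1 at 7 of 11 and antibody 2 at 5.

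The SR-related factors, SR kinases and exon junction proteins had antibody 1 at 19 of 22 genes and antibody 2 at 8. The kinase genes CLK1, CLK2, CLK3 and CLK4 each had antibody 1, at 4.18, 6.99, 6.44 and 9.02, beside 37.5% of all genes. None of them had antibody 2, beside 24.2% of all genes. Other RNA-binding regulators had antibody 1 at 23 of 31 and antibody 2 at 14. RBM39 had the highest antibody 1 value of the 110, 211, with 12.3 for antibody 2. Of the neuronal regulators, NOVA2 had an antibody 1 peak of 9.36 and NOVA1 had no peak in any list.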

How the data were processed

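Chromatin immunoprecipitation was sequenced in 8 libraries, of which 5 have a peak list. Per the submitters' processing notes, cutadapt 2.6, Bowtie2 2.4.5, SAMtools 1.15.1, deepTools 3.5.4, MACS2 2.2.7.1 and bedtools 2.27.1 were used with hg38. The authors called peaks per library and not on pooled replicates. The deposited columns hold the fold enrichment over control, a linear ratio, the −log10 p and −log10 q of each peak, a deposited score that was not used, and the summit offset. The 3 input libraries have no list used here.

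Summits (start plus offset) were matched to all transcript starts of GENCODE release 44 with Python 3.11, pandas 2.3.3 and pysam 0.24.0, and the strongest summit within 1 kb was kept per gene. All intervals lay on hg38 contigs. The script was tested on simulated data. Shares have 95% Wilson intervals and medians have order-statistic intervals. Both strands of RefSeq promoters and of the 50 bp on each side of a summit were searched for motif words, and overlapping matches were kept. SRSF2, SNRPD1, SF3B3, PRPF3, PRPF4B, PRPF39, HNRNPA1, HNRNPA1L3 and HNRNPCL3 had no promoter entry. The values of a further member are counted but not reported here.

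The gene group, the lists and the words were chosen with earlier results of these data known. Named genes were, per family, the member with the highest mean log2 fold over both antibodies and over both CTCF replicates, all members with no peak, with antibody 2 alone, with the higher antibody 2 fold, with IgG, or with 1 CTCF replicate. Others were named in the account of their family after their values were seen. Alternatives changed the q-value limit, the distance, the starts used, the list length, the overlap rule, the gene set and the replicates.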

Additional observations from a re-analysis of the deposited data

How the results depend on the processing

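Of 93 alternative values, 81 stayed within the interval of the reported value, 12 moved outside it and 0 changed sign. Only the log2 ratios could change sign, because shares and folds are always positive. Set against all genes, the order of the median fold turned for CTCF replicate 1 at equal list length (133 against 145) and for antibody 2 at the canonical start (6.96 against 6.99). The members' share was above that of all genes in all 63 settings in which it was computed, by 1.09 to 4.83 times. Cutting each list to its strongest 5973 peaks moved antibody 1 to 61.3%, CTCF replicates 1 and 2 to 17.3% and 16.0%, both CTCF replicates to 14.7%, all 4 lists to 6.67%, and the CTCF median folds to 133 and 96.2. The cut drops the weaker peaks of the longer lists, so under it a share could only fall or stay the same. What else bears on these values was not tested. The canonical start alone moved all 4 lists to 16.0%. Leaving out 9 genes (the copies named at the start, the readthrough locus and U2AF1) moved antibody 1 to 89.4% of 66 members. None of the 9 had an antibody 1 peak, so that share could only rise. The share of all genes was left at 37.5%. Counting either Sp1 antibody in place of both gave 82.7%, and seeking the GC box under antibody 1 summits in place of promoters gave 44.1%. Without 1 CTCF replicate, the share with CTCF was 38.7% to 50.7% and that with Sp1 and CTCF 25.3% to 34.7%. The restriction to genes with a GC box was added after the data were seen. The lists carry no depth, so the absence of a peak is not the absence of the protein. No paired analysis was possible because replicate numbers recur only between CTCF and its inputs, and inputs have no list here.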
